A study of Mus musculus with 8 samples.

Results

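The 35 genes described here mark the cells that lie between and around the seminiferous tubules, and they were taken from a fixed list of gene names. The list holds 6 genes of Leydig cells, 6 of peritubular myoid cells, 6 of stromal cells, 4 of endothelium, 10 of macrophages and other leukocytes, and 3 of red blood cells. All 35 were found among the 55357 genes of the table, and all 35 were among the 20187 genes that were tested, having reached 1 TPM or more in some library. The material was RNA from germ cell preparations of 15-day C57BL/6 males, 1 library for each pup. The 4 controls were *Mgat2*[F/F], and the 4 cKO pups were *Mgat2*[F/F]:*Stra8*-iCre, so both genotypes carried floxed *Mgat2* and only the cKO carried the Cre transgene. *Stra8*-iCre is active in spermatogonia, and the cells that these 35 genes mark are not its target. The tubules were freed with collagenase, the supernatant was removed after settling, and the tubules were then dispersed with trypsin and passed through a filter, with no sorting step. The question asked was how high the RNA of these non-germ cell genes stood in the preparations and whether it differed between genotypes.

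The targeted gene was measured first as a check of the labels. *Mgat2* stood at 69.8, 31.8, 64.3 and 59.8 CPM (counts scaled to library size and normalised between libraries) in controls 1 to 4, and at 35.3, 20.1, 37.6 and 16.0 CPM in cKO 1 to 4. Control 2 lay below cKO 1 and cKO 3, so the genotypes overlapped. The log2 fold change of *Mgat2* was -1.05 ± 0.36 (SE, n = 4 per genotype), with an adjusted p of 0.47 in edgeR's quasi-likelihood test and p = 0.0857 in a two-sided exact permutation test. The libraries held 12584726 to 15907505 expected counts in controls and 14069373 to 15572196 in cKO, so that 3 counts, taken as the smallest signal, were worth 0.190 to 0.234 CPM.

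The testis has a tubular and an interstitial compartment. Inside the tubule, germ cells develop against Sertoli cells. Peritubular myoid cells, a contractile layer related to smooth muscle, wrap the tubule. In the interstitium, Leydig cells make testosterone from cholesterol, stromal cells lay down collagen, and vessels and macrophages lie among them. The labels call the samples germ cells, and markers of all these other compartments were nevertheless measurable.

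The 35 genes together made up 785 to 1142 TPM (a level scaled for gene length and for the library's total) in controls and 866 to 1352 TPM in cKO. That was 0.0785% to 0.135% of all TPM. The share counts these genes alone and does not give the share of RNA that came from their cells. The mean sum of the 35 genes was 1040 ± 172 TPM in controls and 1162 ± 229 TPM in cKO (SD, n = 4 each), and the ranges overlapped. Over the same libraries, 15 Sertoli cell genes, led by *Clu*, *Cst12* and *Aard*, summed to 12672 ± 1197 TPM in controls and 13410 ± 1281 TPM in cKO. The 15 germ cell genes, led by *Tex101*, *Uchl1* and *Sycp3*, summed to 3668 ± 230 TPM in controls and 3447 ± 155 TPM in cKO. In every library the sum of the 35 genes was far below that of the Sertoli cell list. By summed level the cell types ranked as myoid (581 ± 79.8 TPM in controls), stromal (251 ± 37.9), blood (76.0 ± 25.7), Leydig (64.9 ± 22.7), macrophage (57.04 ± 14.0) and endothelial (9.96 ± 3.12). The blood, Leydig and macrophage sums did not differ beyond their spread. In bulk RNA such as this, fewer cells of a type and less RNA per cell cannot be told apart.

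**Figure D1:**
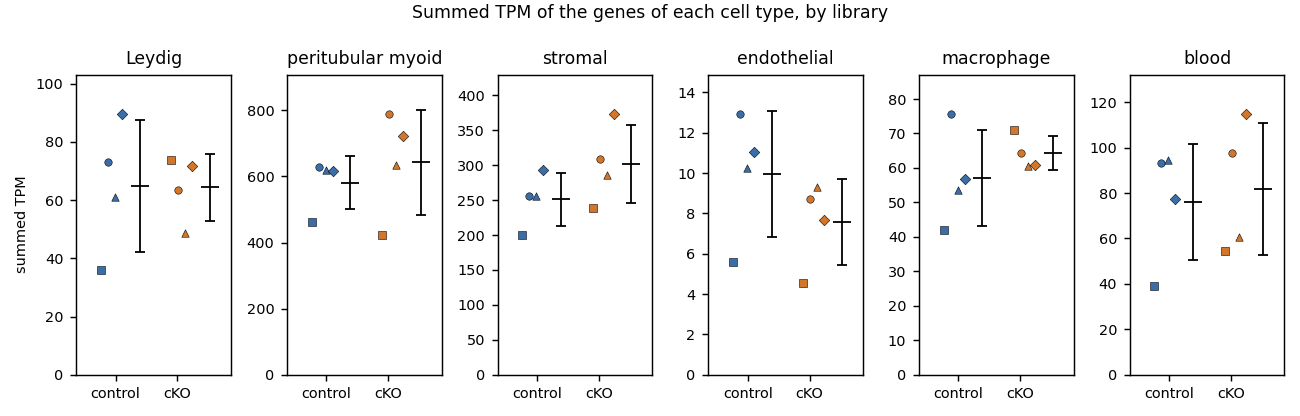
Summed TPM of the genes of each cell type in each library, with the vertical axis from 0 in each panel, a marker shape for each replicate number, and black bars for the mean and SD of each genotype. The genotypes overlap in all 6 panels, and replicate 1 (square) is the lowest of both genotypes in the myoid, stromal, endothelial and blood panels.

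**Figure D2:**
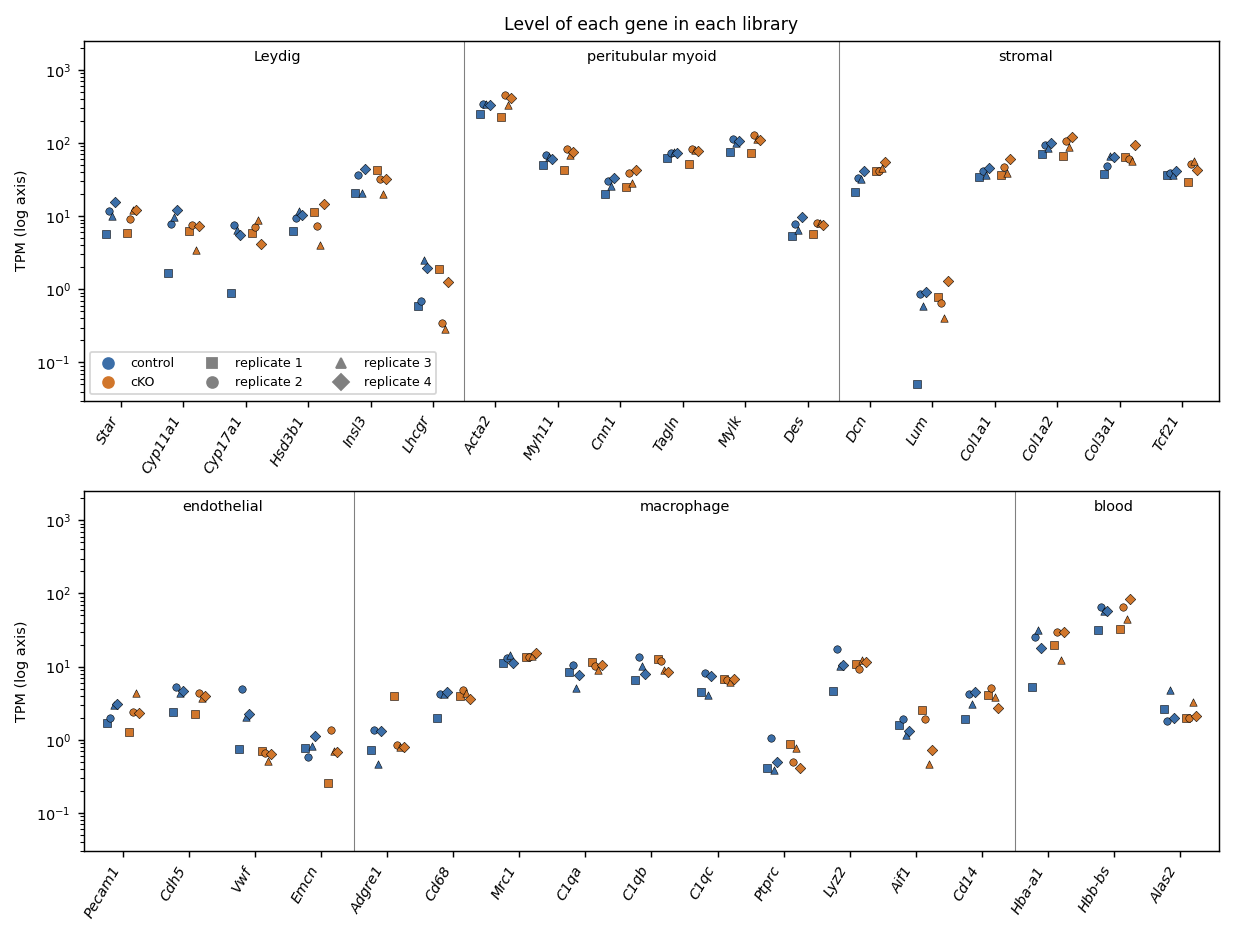
TPM on a log axis of each of the 35 genes in each of the 8 libraries, grouped by cell type, with controls in blue, cKO in orange and a marker shape for each replicate number. *Acta2* is the highest gene, from 225 to 447 TPM, and control 1 (blue square) falls far below the other controls for *Cyp17a1* and *Lum*.

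One pair of libraries stood apart. Control 1 was the lowest of all 8 libraries for 16 of the 35 genes and cKO 1 for 9, on normalised CPM. The replicate 1 library was the lowest of its own genotype in both genotypes at once for 13 of the 35 genes, and for 19.4% of all genes tested. These 13 were 5 of 6 myoid, 3 of 6 stromal, 3 of 4 endothelial, 1 of 6 Leydig and 1 of 3 blood genes, with none of the 10 macrophage genes. In the Sertoli cell list 9 of 15 genes had this pattern and in the germ cell list 3 of 15. Nothing in the labels marks replicate 1 as a batch. The 35 genes as a set are therefore compared below with all 8 libraries and again without replicate 1 of both genotypes. The second fit was a choice made after the data were seen. For single genes in the text it is given only where stated, and all other values rest on all 8 libraries.

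Between genotypes, none of the 35 genes passed an adjusted p of 0.05 in edgeR, where 0.0396% of all genes tested did. DESeq2 called none of the 35 and 1.5% of all genes tested. limma-voom called 0% of all genes, so its count of 0 says nothing about these 35. At an unadjusted p under 0.05, 1 of the 35, *Dcn*, was higher in cKO and none was lower, beside 2.62% of all genes higher and 6.28% lower. The same gene was the one member whose 4 cKO libraries all lay above the 4 controls, beside 2.47% of all genes apart in that direction and 3.03% apart in the other. These shares are near the background. The median log2 fold change of the 35 genes was 0.13, with 26 estimates above 0 and 9 below, and the median over all genes tested was 0.01. The comparison lists had medians alike, 0.10 for the Sertoli cell genes (13 of 15 above 0) and 0.14 for the germ cell genes (8 of 15 above 0).

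Without replicate 1 of both genotypes, 4 of the 35 were called, all higher in cKO, namely *Myh11*, *Mylk*, *Dcn* and *Tcf21*. In that fit 0.451% of all genes were called higher and 3.78% lower, and no member was called lower. The genotypes were apart for 7 members in the higher direction and for 3, *Cyp11a1*, *Cdh5* and *Vwf*, in the lower, beside 8.17% and 10.6% of all genes. The median over the 35 was -0.01, with 17 estimates above 0. All 6 myoid and all 6 stromal estimates stayed above 0, while the number above 0 went from 8 to 3 of 10 for macrophage genes, from 3 to 0 of 6 for Leydig genes and from 3 to 1 of 3 for blood genes. For the 4 endothelial genes it went from 0 to 1.

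**Figure D3:**
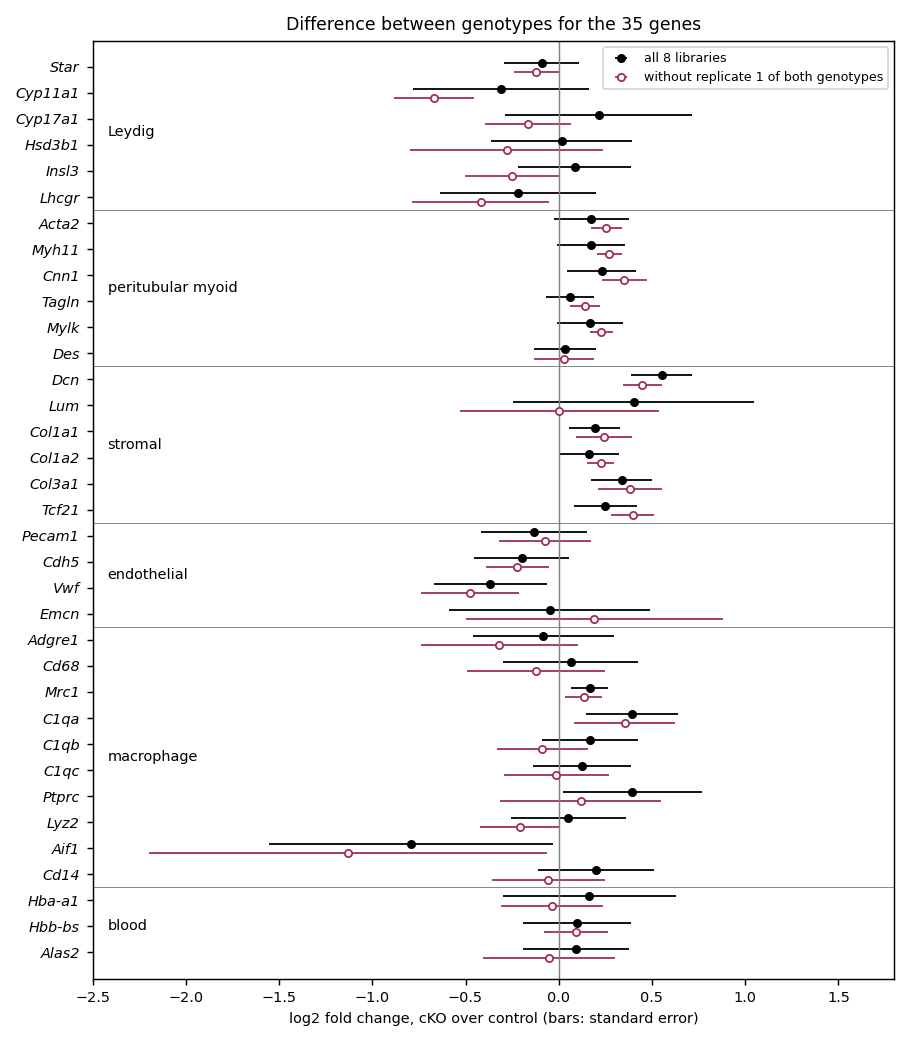
Log2 fold change of each gene, cKO over control, with bars of 1 standard error, for all 8 libraries (filled points) and without replicate 1 of both genotypes (open points). With all 8 libraries every stromal and myoid estimate lies above 0 and every endothelial estimate below it, the highest being *Dcn* at 0.55 and the lowest *Aif1* at -0.79.

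**Figure D4:**
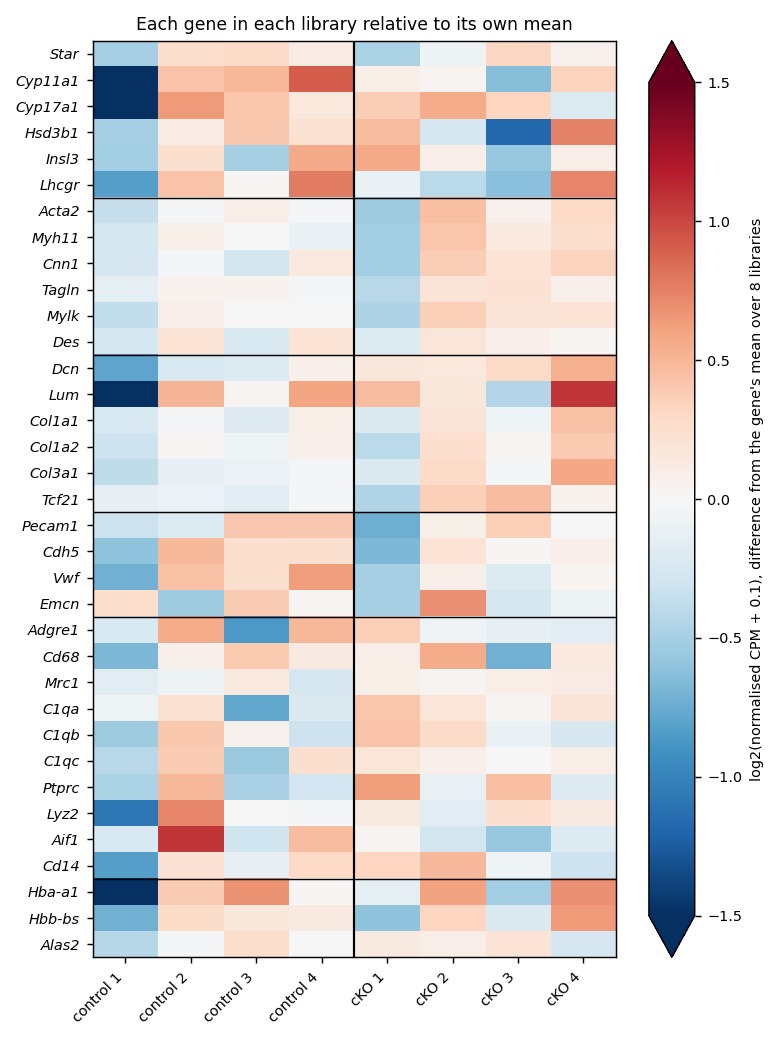
Colour gives log2(normalised CPM + 0.1) of each gene in each library as the difference from that gene's mean over the 8 libraries, with red above and blue below the mean and the colour scale ending at 1.5 in both directions. Blue runs down most of the control 1 column and, among myoid and endothelial genes, down the cKO 1 column.

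The Leydig genes follow the route from cholesterol to androgen, and none of the 6 passed the test between genotypes. *Insl3*, a peptide hormone of Leydig cells that guides testis descent, had the highest level. It stood at 20.6, 36.05, 20.5 and 43.8 TPM in controls and at 42.5, 31.7, 19.8 and 32.2 TPM in cKO. Each genotype thus held both high and low libraries. *Star*, which carries cholesterol into the mitochondrion, stood at 14.3, 24.4, 24.8 and 22.1 CPM in controls and at 14.6, 19.3, 25.2 and 21.3 CPM in cKO. Here replicate 1 was the lowest in both genotypes and the other 6 libraries overlapped.

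*Cyp11a1*, the side-chain cleavage enzyme that makes pregnenolone, stood at 2.04, 9.21, 9.67 and 12.9 CPM in controls and at 7.30, 6.99, 4.33 and 8.58 CPM in cKO. All 4 cKO libraries lay above control 1 and below the other 3 controls. With all 8 libraries its log2 fold change was -0.31 ± 0.47 (SE). Without replicate 1 it was -0.67 ± 0.21 with an adjusted p of 0.0784 in edgeR, and the remaining 3 cKO libraries all lay below the 3 controls. *Cyp17a1*, which makes the androgen precursors, also depended on control 1, where it stood at 0.883 CPM (13 counts) against 4.04 to 7.33 CPM in the other 7 libraries. Its estimate was 0.21 ± 0.50 with all libraries and -0.16 ± 0.23 without replicate 1. *Hsd3b1*, a dehydrogenase of the route, ranged from 3.70 CPM in cKO 3 to 14.3 CPM in cKO 4, which enclosed all 4 controls (5.97 to 11.2 CPM). *Lhcgr*, the receptor for luteinising hormone, was the lowest of the list, with 16 to 48 counts a library. On normalised CPM, control 1 was the lowest control for all 6 Leydig genes, while cKO 1 was the lowest cKO for *Star* alone. For *Insl3* control 3 was about as low as control 1. Summed over the 6 genes, the level was 35.9, 73.2, 61.1 and 89.7 TPM in controls and 73.8, 63.4, 48.6 and 71.7 TPM in cKO. *Insl3* made up 47.8% of the summed Leydig TPM.

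Of 15 further Leydig genes, 12 were tested and none was called. Their 2 highest, *Scarb1* (164 TPM) and *Nr5a1* (83.3 TPM), a lipoprotein receptor and a steroidogenic transcription factor, are also used by Sertoli cells. *Scarb1* had a log2 fold change of -0.01 and *Nr5a1* of 0.13. *Akr1c18* and *Mc2r* had 0 counts in every library, which allows up to 3 counts each.

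The contractile genes of peritubular myoid cells were the most abundant of the 35, and the same libraries were low or high for most of them. *Acta2*, smooth muscle actin, stood at 248, 337, 346 and 330 TPM in controls and at 225, 447, 334 and 410 TPM in cKO. Replicate 1 was the lowest of each genotype, and cKO 2 and cKO 4 lay above every control. *Acta2* made up 54.7% of the summed myoid TPM. *Myh11*, the smooth muscle myosin heavy chain, stood at 204, 260, 245 and 227 CPM in controls and at 170, 325, 271 and 288 CPM in cKO. *Mylk*, the kinase that switches that myosin on, stood at 170, 232, 220 and 222 CPM in controls and at 159, 282, 251 and 254 CPM in cKO. For both genes cKO 1 was the lowest of the 8 libraries and the other 3 cKO libraries were the highest. cKO 1 was the lowest library for 5 of the 6 genes, and cKO 2 was the highest for 4.

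With all libraries the 6 myoid estimates ran from 0.03 (*Des*, the intermediate filament of muscle) to 0.23 (*Cnn1*, a calponin that binds actin), their median was 0.17, and the lowest adjusted p was 0.73 in edgeR. Without replicate 1, *Myh11* was higher in cKO by 0.27 ± 0.07 on the log2 scale (adjusted p = 0.0113, edgeR) and *Mylk* by 0.23 ± 0.06 (adjusted p = 0.0209, edgeR). *Acta2* gave 0.25 ± 0.08 with an adjusted p of 0.12, *Cnn1* gave 0.35 ± 0.12 with an adjusted p of 0.105, and *Tagln*, a small actin-binding protein, gave 0.14 ± 0.08 with an adjusted p of 0.48, all from the same fit. The differences called are 1.21-fold for *Myh11* and 1.17-fold for *Mylk*, and these genes were called in no other setting that was run. As a share of the Sertoli sum of the same library, the myoid sum was 4.57% ± 0.298 in controls and 4.75% ± 0.897 in cKO (SD, n = 4 each). None of 13 further contractile and myoid genes was called. The highest of them were *Myl9*, a myosin light chain (330 TPM, log2 fold change 0.13), and *Tpm1*, a tropomyosin (151 TPM, 0.11).

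Smooth muscle genes are classically switched on by serum response factor, which binds a 10-base element named the CArG box. The 250 bases before the annotated start were read from GRCm39 for each of the 6 genes and searched on both strands for the exact CArG box. Why the same libraries were low or high for most of these genes was not tested. It was present in 1 of the 6, *Tagln*, and in 1.40% of 21770 protein-coding genes. The sequences of *Tagln* (chr9:45847405-45847654, reverse strand) and of *Acta2* (chr19:34232991-34233240, reverse strand), the gene of highest level, are printed 5′ to 3′ with the matching element in capitals.
*Tagln* upstream: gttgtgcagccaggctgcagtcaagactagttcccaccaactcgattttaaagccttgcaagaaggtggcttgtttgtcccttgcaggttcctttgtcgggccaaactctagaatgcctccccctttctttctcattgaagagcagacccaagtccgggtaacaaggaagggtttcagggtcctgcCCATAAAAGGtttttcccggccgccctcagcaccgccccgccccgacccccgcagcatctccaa
*Acta2* upstream: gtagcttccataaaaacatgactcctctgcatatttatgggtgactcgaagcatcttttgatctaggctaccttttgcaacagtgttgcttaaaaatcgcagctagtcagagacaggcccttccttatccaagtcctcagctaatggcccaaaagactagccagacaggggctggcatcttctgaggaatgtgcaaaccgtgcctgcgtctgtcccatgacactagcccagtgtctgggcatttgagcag
The element of *Tagln* begins at position -64 from the annotated start. The absence of a match in the other 5 says only that these exact letters are not in this window. The same length of sequence before the 6 Leydig genes was searched on both strands for the letters CAAGGTCA or CAAGGCCA. These are an element of the steroidogenic factor encoded by *Nr5a1*. None of the 6 held one, and 3.16% of protein-coding genes did. Here too, absence says only that these exact letters are not in this window. For *Star* and *Cyp11a1* the window lies inside the annotated gene, so sequence before its outermost start was not searched.

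The stromal genes held the member nearest to a difference. *Dcn* (GRCm39 chr10:97315275-97358155) encodes decorin, a small proteoglycan that coats collagen fibrils. It stood at 20.4, 30.1, 30.8 and 37.5 CPM in controls and at 40.0, 39.5, 43.3 and 51.3 CPM in cKO. Every cKO library lay above every control, although the highest control and the lowest cKO were close. In counts the range was 300 to 487 in controls and 602 to 723 in cKO. Its log2 fold change was 0.55 ± 0.16 (SE; 95% interval 0.23 to 0.87), a 1.47-fold difference, with an unadjusted p of 0.00615 and an adjusted p of 0.38 in edgeR. A two-sided exact permutation test gave p = 0.0286, which is the smallest that 4 against 4 libraries allow. Any gene with the genotypes apart gets this value, so it adds nothing to the separation itself. Without replicate 1 the estimate was 0.45 ± 0.11 with an adjusted p of 0.00652 (edgeR). Over 18 alternative settings it ran from 0.41 to 0.69, and the adjusted p from 0.000234 to 0.82.

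The 3 fibrillar collagen genes *Col1a1*, *Col1a2* and *Col3a1*, which build collagen types I and III, summed to 142, 183, 187 and 209 TPM in controls and to 167, 214, 184 and 274 TPM in cKO. cKO 4 was the highest library for all 3 and for *Dcn* and *Lum*. *Col3a1* stood at 126, 151, 155 and 160.5 CPM in controls and at 141, 200.0, 161 and 246 CPM in cKO, where cKO 1 overlapped the controls. Its log2 fold change was 0.34 ± 0.17, with an unadjusted p of 0.072 and an adjusted p of 0.59 in edgeR. Without replicate 1 it was 0.38 ± 0.17 with an adjusted p of 0.44 in edgeR, and the genotypes were apart. *Tcf21*, a transcription factor of the mesenchyme, stood at 23.4, 23.9, 22.7 and 24.99 CPM in controls and at 18.6, 32.7, 35.2 and 26.4 CPM in cKO. Its 4 controls were close to each other and enclosed by the cKO libraries, with cKO 1 alone below them. Its estimate was 0.25 ± 0.17 with all libraries and 0.40 ± 0.11 without replicate 1, with an adjusted p of 0.0336 (edgeR). *Lum*, which encodes lumican, had 1 count in control 1 and 8 to 25 in the other libraries. All 6 stromal estimates lay above 0 with a median of 0.29, and the summed level was 251 ± 37.9 TPM in controls and 302 ± 56.3 TPM in cKO (SD, n = 4 each), with overlapping ranges.

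None of 16 further stromal genes was called, and 14 of their estimates lay above 0. So did 52 of all 73 further genes tested and 10364 of the 20187 genes tested. The estimate farthest from 0 was below it, -0.82 ± 0.36 for *Mfap5* (adjusted p = 0.54, edgeR). *Sparc*, a matrix protein, was by far the most abundant (989 TPM, log2 fold change 0.08), followed by *Col6a1*, a collagen VI chain (45.2 TPM, 0.14). *Fbln1*, a fibulin, was apart between genotypes, higher in cKO, with a log2 fold change of 0.16 and an adjusted p of 0.62 in edgeR. Without replicate 1, *Pdgfra*, a growth factor receptor of stromal cells, was the only further gene of any cell type called in edgeR, with 0.33 ± 0.08 and an adjusted p of 0.00854.

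The endothelial genes had the lowest summed level of the 6 cell types, although all 4 were above 3 counts in every library. *Cdh5*, the cadherin that joins endothelial cells, was the highest and stood at 2.38, 5.34, 4.42 and 4.57 TPM in controls and at 2.28, 4.33, 3.75 and 4.02 TPM in cKO. Replicate 1 of both genotypes was the low library, and the other 3 cKO libraries lay below the other 3 controls. *Pecam1*, an adhesion molecule of the vessel wall, had 50 to 90 counts in controls and 38 to 79 in cKO. *Emcn*, a sialomucin of capillaries and veins, had 6 to 13 counts in controls and 6 to 16 in cKO. All 4 estimates were below 0 with all libraries, from -0.37 ± 0.30 for *Vwf* to -0.05 ± 0.54 for *Emcn*. The lowest adjusted p was 0.73 in edgeR. The summed level was 5.60, 12.9, 10.2 and 11.1 TPM in controls and 4.54, 8.73, 9.30 and 7.66 TPM in cKO.

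*Vwf*, which encodes the von Willebrand clotting factor, depended on the unit. In TPM it stood at 0.74, 5.01, 2.03 and 2.25 in controls and at 0.71, 0.66, 0.52 and 0.64 in cKO, so that the genotypes were apart. The exact permutation p was then 0.0286, the value that any gene with the genotypes apart gets. In counts it stood at 30, 72, 64 and 68 in controls and at 36, 56, 42 and 49 in cKO, with overlap. The exact permutation p on CPM was 0.257. Without replicate 1 its log2 fold change was -0.48 ± 0.26 with an adjusted p of 0.44 in edgeR, and the genotypes were apart on CPM. TPM divides a gene's reads by an effective length that RSEM estimates in each library from the isoforms it assigns reads to. The length implied by the 2 deposited values varied 5.81-fold between libraries for *Vwf*. It varied 5.23-fold for *Lhcgr*, 3.62-fold for *Adgre1* and 3.43-fold for *Aif1*, while over genes with at least 10 counts in each library the median was 1.16-fold. For *Dcn* it varied 1.01-fold.

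**Figure D5:**
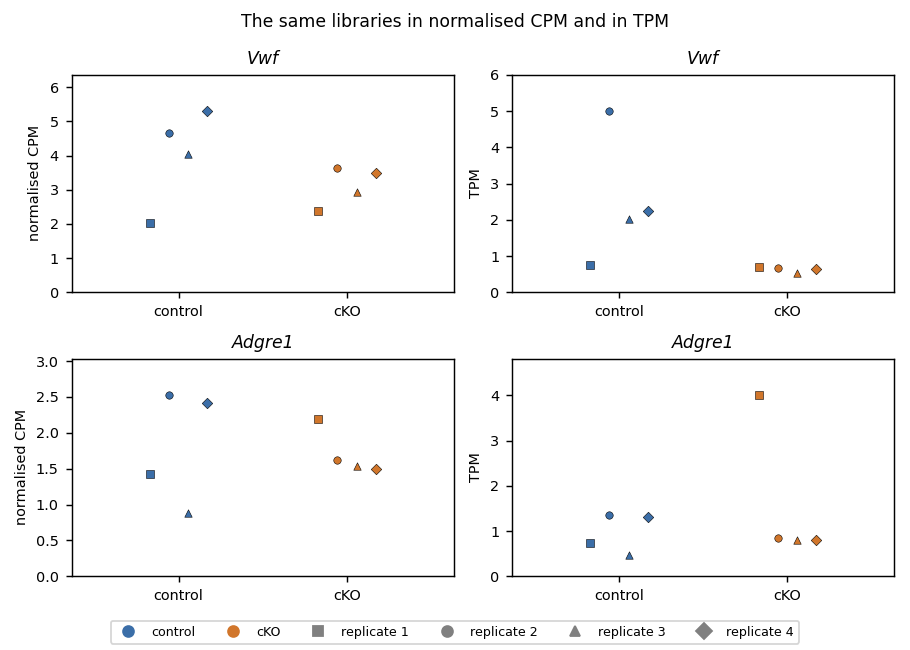
*Vwf* and *Adgre1* in each library, in normalised CPM (left) and TPM (right), with controls in blue, cKO in orange and a marker shape for each replicate number. *Vwf* overlaps between genotypes in CPM but not in TPM, and *Adgre1* in cKO 1 is within the range of the other libraries in CPM but stands at 4.01 TPM, above all others.

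Of 14 further endothelial and mural genes none was called, with 7 estimates on each side of 0. The highest were *Egfl7* (14.8 TPM, log2 fold change 0.20) and *Eng*, a co-receptor of endothelium (7.22 TPM, 0.03).

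None of the macrophage genes passed the test between genotypes, and replicate 1 was not the lowest cKO library for any of them. *Mrc1*, the mannose receptor of resident macrophages, had the highest level and the smallest spread. It stood at 11.3, 13.1, 14.6 and 11.2 TPM in controls and at 13.6, 13.5, 14.2 and 15.5 TPM in cKO. Its log2 fold change was 0.17 ± 0.10 (SE), with an adjusted p of 0.65 in edgeR. The 3 chains of complement C1q, which these cells secrete as 1 complex, are encoded by neighbouring genes on chromosome 4 and summed to 19.4, 32.3, 19.3 and 23.2 TPM in controls and to 31.2, 28.6, 24.1 and 25.5 TPM in cKO. The cKO libraries lay inside the range of the controls. *C1qa* had an estimate of 0.39 ± 0.25, *C1qb* of 0.17 ± 0.26 and *C1qc* of 0.13 ± 0.26.

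*Lyz2*, the lysozyme of myeloid cells, ranged from 3.12 CPM in control 1 to 11.2 CPM in control 2, which enclosed the 4 cKO libraries (6.02 to 8.03 CPM). *Ptprc*, which encodes the pan-leukocyte protein CD45, had 16 to 34 counts in controls and 19 to 37 in cKO. *Adgre1*, which encodes the macrophage antigen F4/80, had 14 to 39 and 21 to 33 counts. *Cd68*, a lysosomal protein of macrophages, had 17 to 40 and 16 to 44 counts, and *Cd14*, the co-receptor for bacterial lipopolysaccharide, had 23 to 51 and 32 to 62. *Aif1*, a calcium-binding protein of macrophages, had 2 to 10 counts a library and was at or under 3 counts in 5 of the 8, so its estimate of -0.79 ± 0.76 rests on very few reads. The summed macrophage level was 57.04 ± 14.0 TPM in controls and 64.2 ± 4.93 TPM in cKO (SD, n = 4 each). Of 16 further immune genes 13 were tested and none was called. Their highest were *Cd74*, the invariant chain of antigen presentation (8.90 TPM, log2 fold change -0.05), and *Fcer1g*, an adaptor of Fc receptors (8.81 TPM, 0.37). *Lyz1*, the second lysozyme gene, was at or under 3 counts in every library.

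None of the 3 genes of red blood cells passed the test between genotypes, and *Hba-a1* varied most between libraries (5.43-fold from lowest to highest), *Hbb-bs* 2.59-fold and *Alas2* 1.65-fold. *Hbb-bs*, an adult β-globin, stood at 31.5, 65.7, 58.4 and 57.1 TPM in controls and at 32.9, 65.5, 44.9 and 83.0 TPM in cKO. Replicate 1 was the lowest of each genotype. *Hba-a1*, an α-globin, had 20, 92, 116 and 59 counts in controls and 62, 108, 45 and 104 in cKO. *Alas2*, the erythroid enzyme that starts haem synthesis, had 22 to 39 counts in controls and 24 to 34 in cKO. The 3 estimates were 0.16 ± 0.46 for *Hba-a1*, 0.10 ± 0.29 for *Hbb-bs* and 0.09 ± 0.29 for *Alas2*. *Hbb-bs* made up 69.5% of the summed blood TPM.

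Globin reads cannot all be placed on 1 gene. Of the 150-base stretches of the *Hba-a1* transcript, the length of 1 read, 62.8% also occur in *Hba-a2*, and of those of *Hbb-bs* 55.0% occur in *Hbb-bt*. Summed over each pair, α-globin was 56.7 ± 25.8 TPM in controls and 70.1 ± 31.3 TPM in cKO, and β-globin was 58.2 ± 16.3 TPM and 61.4 ± 24.7 TPM (SD, n = 4 each). Of 10 further blood genes 9 were found and 5 tested, and none was called. Besides *Hba-a2*, the highest was *Pf4*, a platelet chemokine (7.47 TPM). Its log2 fold change was 0.78, with an adjusted p of 0.57 in edgeR. On normalised CPM it was apart between genotypes, higher in cKO, with 10 to 16 counts in controls and 17 to 30 in cKO. In TPM the genotypes overlapped, with control 2 (10.96 TPM) above every cKO library. *Ppbp*, the other platelet chemokine of the list, had 0 counts in every library, so no second platelet gene of the list was detected. *Slc4a1*, the anion exchanger of red cells, was at or under 3 counts in every library.

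Overlap with neighbouring genes limits some of these levels. The libraries do not keep the strand, so reads from overlapping exons of opposite genes cannot be told apart. Of the 35 genes, 19 share exonic bases with another annotated gene. *Star* shares 58.5% of its exonic bases with *Ash2l* on the opposite strand, a gene with a mean of 1970 counts against 305 for *Star*. *Tagln* shares 66.7%, mostly with the noncoding RNA *Gm48529* (mean 159 counts against 818) and in part with *Pcsk7* (mean 822 counts), both on the opposite strand. *Cnn1* shares 35.1% with *Elof1* (mean 824 counts against 325), and all of *Insl3* lies within annotated exons of *Jak3* (mean 34.6 counts against 92.3). *Alas2* shares 11.6% with *Apex2* on the opposite strand (mean 204 counts against 30.5). The levels of *Star*, *Tagln*, *Cnn1*, *Insl3* and *Alas2* are therefore uncertain, and so is the Leydig sum, which holds *Star* and *Insl3*. *Dcn*, *Myh11* and *Mrc1* share no exonic bases with another gene.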

How the data were processed

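Germ cell RNA of 8 mice was measured by RNA-seq of polyadenylated RNA in non-stranded paired-end libraries. Per the labels' processing notes and the study's methods, the authors aligned reads to mm39 (GRCm39) with STAR 2.7.9a and quantified genes with RSEM 1.3.3. The authors deposited RSEM expected counts, not normalised between samples, and TPM values, which are scaled within each library for length and depth. The notes also name DESeq2 1.38.3.

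Expected counts were rounded, since 12.9% of the members' values were not whole. Genes reaching 1 TPM in 1 or more samples were fitted with edgeR 4.0.16 (TMM factors, robust quasi-likelihood F-test, genotype only, all 8 samples), with Benjamini-Hochberg adjustment over all genes and a threshold of 0.05, called below it. Fold changes are cKO over control. Alternatives were DESeq2 1.42.0, limma 3.58.1 (voom, and trend on log2(TPM + 1) and log2(TPM + 0.1)), other scalings and filters, the replicate number as a block, and leaving out each sample. Leaving out replicate 1 of both genotypes, and counting separated genotypes on TPM, were chosen after the data were seen. Single genes were compared by two-sided exact permutation over the 70 assignments. The scripts were tested on simulated counts. Positions, exon overlap, shared stretches and upstream sequences came from GRCm39 and GENCODE mouse release M39 (R 4.3.3, Python 3.11.15, pysam 0.24.0). Each library is 1 pup, so p-values cover the spread between pups. Counting limits of 3 reads cover counting error only.

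The members and lists were chosen with earlier results of these data known. Per-sample values are given for the highest member of each cell type, members with an unadjusted p under 0.05 or separated genotypes, and members of the same pathway. Further genes are named where called, separated between genotypes, among the 2 highest of their cell type, or at or under 3 counts in every library. *Cyp11a1*, *Tcf21* and *Vwf* are singled out, and *Pdgfra* and *Mfap5* are named, after their values were seen.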

Additional observations from a re-analysis of the deposited data

Results flagged for a closer look

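In groups of 4 libraries, the highest or lowest value was compared with its nearest neighbour as a share of the group's range (Dixon's test) for the 35 genes and for the 6 summed levels in each genotype. Of 82 groups 2 were past the 95% limit, where chance gives about 4.1. The summed TPM of the 6 peritubular myoid genes was 461.67 in control 1, with the other controls from 615.07 to 629.08. *Ptprc*, which encodes CD45, stood at 2.20 normalised CPM in control 2, with the other controls from 1.07 to 1.25.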

How the results depend on the processing

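The count of genes called over the whole table moved most. It was 8 in edgeR, 302 with DESeq2, 0 with limma-voom, 17 with library totals, 35 with no expression filter, 0 with filterByExpr, 855 without replicate 1 of both genotypes, and 0 to 32 when 1 library was left out. *Mgat2*, run also with DESeq2, the block and the left-out libraries, passed the threshold with DESeq2 (-1.06, adjusted p = 0.0252) and in none of the others. None of the 35 genes and none of the 73 further genes tested was called under any other test, scaling, filter or single library left out. Without replicate 1 of both genotypes 4 members and 1 further gene were called, and the genotypes were apart for 10 members. On TPM they were apart for 2, *Dcn* and *Vwf*.

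The replicate block called 1464 of the 20187 genes tested, 2 of the 35 members and 1 of the 73 further genes, *Pdgfra*. The members were *Dcn* (0.57, adjusted p = 0.000234) and *Col3a1* (0.31, adjusted p = 0.0212), both in edgeR. The share of members called was not above the share of all genes. No source says that replicate numbers pair the mice. Deviations of same-numbered libraries from their genotype means correlated across genes at 0.65, 0.24, 0.07 and 0.28 for numbers 1 to 4, and 3 of 8 libraries correlated best with their own number. *Hsd3b1* turned to -0.076 under the block.

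Of 628 alternative values of single members 52 had the opposite sign, over 18 members, and none of these was called. Without replicate 1 of both genotypes the reversed log2 fold changes were *Cyp17a1* -0.16, *Hsd3b1* -0.28, *Insl3* -0.25, *Emcn* 0.19, *Cd68* -0.12, *C1qb* -0.089, *C1qc* -0.013, *Lyz2* -0.21, *Cd14* -0.056, *Hba-a1* -0.037 and *Alas2* -0.054. With limma-voom they were *Hsd3b1* -0.12 and *Adgre1* 0.041. On log2(TPM + 1) they were *Hsd3b1* -0.11, *Pecam1* 0.012, *Adgre1* 0.28 and *Alas2* -0.15, and on log2(TPM + 0.1) *Hsd3b1* -0.13, *Adgre1* 0.43 and *Alas2* -0.18. Leaving out 1 library at a time gave ranges of -0.24 to 0.033 for *Star*, -0.13 to 0.47 for *Cyp17a1*, -0.28 to 0.28 for *Hsd3b1*, -0.11 to 0.33 for *Insl3*, -0.60 to 0.042 for *Lhcgr*, -0.0054 to 0.18 for *Tagln*, -0.044 to 0.11 for *Des*, -0.29 to 0.046 for *Pecam1*, -0.41 to 0.11 for *Emcn*, -0.31 to 0.12 for *Adgre1*, -0.14 to 0.26 for *Cd68*, -0.018 to 0.30 for *C1qc*, -0.19 to 0.39 for *Lyz2*, -0.14 to 0.44 for *Hba-a1*, -0.13 to 0.28 for *Hbb-bs* and -0.023 to 0.21 for *Alas2*. The cause of these changes was not tested. The 17 members with no reversal included all stromal genes. *Aif1*, *Emcn* and *Lum* had at most 25 counts in any library, and their standard errors of 0.54 to 0.76 leave large differences undetectable at this depth.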
